A study of Mus musculus with 2 samples.

Results

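The genes described here let a cell sense interleukin-1 and the microbial or damage products that Toll-like receptors bind. They were the 10 listed genes Il1r1, Il1rap, Il1a, Il1rn, Tlr2, Tlr3, Tlr4, Cd14, Myd88 and Irak3, out of 22180 genes with a value. They were chosen by name as routes by which a cell homogenate could signal, with earlier results of these arrays known. RNA came from subepithelial myofibroblasts, the contractile stromal cells under the gut epithelium, grown from the small bowel of wild-type BALB/c mice. The stimulated cells had been given 5 mg/ml of homogenised intestinal eosinophils for 1 day, and the non-stimulated cells had none. For each condition the RNA of 3 cultures was pooled and put on 1 array. The 2 arrays have no replicate error, no test between them is possible, and every difference describes these pools alone. The labels give no age for the mice, and neither another homogenate nor a carrier-treated culture is among the samples analysed here.

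As background, interleukin-1 binds the receptor chain Il1r1, which then recruits the accessory chain Il1rap. Toll-like receptors recognise microbial products, TLR2 with lipoproteins, TLR4 with lipopolysaccharide and TLR3 with double-stranded RNA inside endosomes. The cytoplasmic part of all these receptors carries a TIR domain, which for the interleukin-1 receptor, TLR2 and TLR4 engages the adaptor MyD88 and IRAK kinases and leads to the transcription factor NF-kB. TLR3 signals through the adaptor TRIF instead, the product of Ticam1. In the gut, fibroblasts and myofibroblasts are among the cells that answer interleukin-1 with cytokines, chemokines and matrix proteases.

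Values are the authors' deposited log2 values, and differences are stimulated minus non-stimulated. A background level was read on each array from 1407 probesets of olfactory and vomeronasal receptors, genes that stromal cells should not use, as the 95th percentile of their values. It lay at 5.57 on the stimulated and 5.58 on the non-stimulated array, and 14068 genes passed it on at least 1 array. The labelled cell type had its markers: all 14 fibroblast and myofibroblast genes were above background on both arrays, led by Vim (vimentin) at 13.16 and 13.10 and Acta2 (smooth muscle alpha-actin) at 12.78 and 13.07 on the stimulated and the non-stimulated array. Both samples have a source label that names small intestinal eosinophils, yet the eosinophil granule genes Epx (5.25 and 4.73) and Prg2 (4.32 and 4.75) were under background on both. Of 9 eosinophil markers with a value 2 were above it. Alox15 (5.87 and 5.68) passed on both arrays and Cebpe (5.46 and 5.91) on the non-stimulated array alone.

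Of the 10 genes, 7 were above background, each on both arrays, and all 7 read higher on the stimulated array. Il1r1, Il1rap and Irak3, an inhibitory kinase homologue, differed most, and the 3 Toll-like receptors and Myd88 differed little. The remaining 3, the ligand Il1a, the antagonist Il1rn and the co-receptor Cd14, were under background on both arrays. Among all genes above background 50.2% read higher and 48.2% lower. A difference of at least 0.25 on the log2 scale was reached upwards by 3 of the 7 genes and downwards by none, where 6.69% of all genes were as much higher and 7.64% as much lower. At least 1.5-fold higher was 1 of the 7 (Il1r1), against 0.796% of all genes, and none was 1.5-fold lower, against 0.64%. None reached 2-fold in either direction, as 0.192% of all genes did upwards and 0.0426% downwards. The median difference of the 7 was 0.21, between 0.11 and 0.63, beside a median of 0.00 over all 14068 genes. Since the 10 genes were chosen with earlier results of these arrays known, these shares are a description and not independent evidence.

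**Figure D1:**
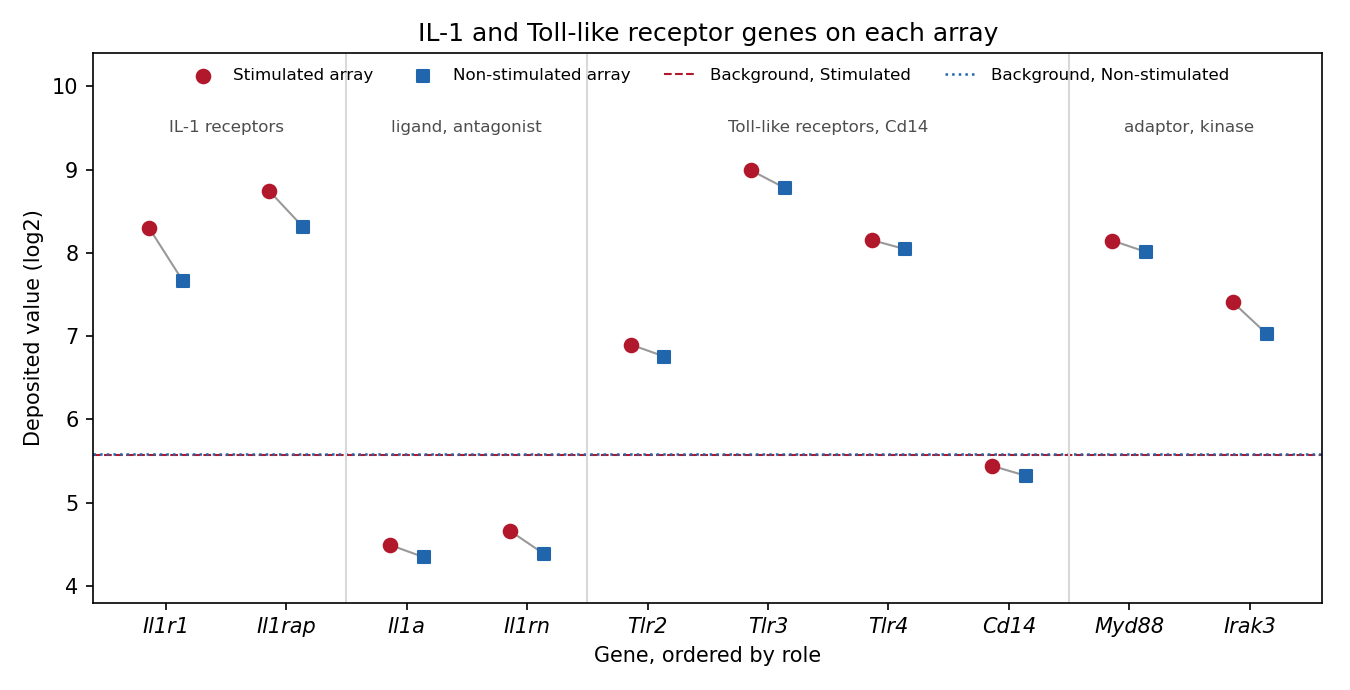
Deposited log2 value (vertical axis) of each of the 10 genes on the stimulated array (circles) and the non-stimulated array (squares), 1 point per array, with the background level of each array as horizontal lines near 5.57. The circle is above the square for every gene, the widest gap is that of Il1r1 (8.30 and 7.67), and Il1a, Il1rn and Cd14 lie under both lines.

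Both chains of the interleukin-1 receptor read higher with homogenate. Il1r1, the chain that binds the ligand, read 8.30 on the stimulated and 7.67 on the non-stimulated array. This is a difference of 0.63, or 1.55-fold higher, and it ranked 86 from the top among the 14068 genes. Il1rap, the accessory chain without which the receptor does not signal, read 8.74 on the stimulated and 8.31 on the non-stimulated array, 1.35-fold higher and ranked 250. Differences widen towards dim genes, so the genes were split into 4 equal sets by mean level and each gene was read against its own set. In the set that holds both receptor chains, the central 95% of 3517 differences ran from -0.29 to 0.32, and both chains lay above it. Il1rap has 3 probesets in the platform annotation. The one used here was the brightest, and the other two read 3.72 and 4.74 on the stimulated array against 4.01 and 4.74 on the non-stimulated array, all under background. The mean of the 3 probesets differed by 0.04, so that the higher reading of Il1rap rests on 1 probeset.

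The 300 bases around the annotated starts of Il1r1 and Il1rap (250 before and 50 after, from RefSeq on GRCm38.p6) are shown because these 2 differed most among the receptors of the 10 genes. RefSeq windows were searched for 8 of the 10 genes, 12 windows in all, since some genes have several start sites. Tlr4 had no window, and Cd14 was left out of the search. Each was searched on both strands for the kappaB consensus, to which NF-kB binds, for TGANTCA (bound by AP-1), and for TTCNNNGAA (bound by STAT proteins). Capitals mark each match. The Il1r1 window on the + strand at chr1:40266336-40266635 held 1 kappaB match, GGAATGCCCC, with its first base at -232 from the start. The other Il1r1 window, at chr1:40224830-40225129 on the + strand, held no match to any of the 3. Nor did the Il1rap window on the + strand at chr16:26581455-26581754. Of all 32851 windows, 8.46% held a kappaB match, 7.81% TGANTCA and 8.3% TTCNNNGAA. A match is a run of letters and was not tested as a binding site.
Il1r1, start without a match: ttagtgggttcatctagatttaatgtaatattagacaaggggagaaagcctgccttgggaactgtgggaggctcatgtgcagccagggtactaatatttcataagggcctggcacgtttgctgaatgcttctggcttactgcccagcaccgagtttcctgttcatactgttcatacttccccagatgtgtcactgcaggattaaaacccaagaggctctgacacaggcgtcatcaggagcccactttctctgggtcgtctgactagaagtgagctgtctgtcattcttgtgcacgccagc
Il1r1, start with the kappaB match: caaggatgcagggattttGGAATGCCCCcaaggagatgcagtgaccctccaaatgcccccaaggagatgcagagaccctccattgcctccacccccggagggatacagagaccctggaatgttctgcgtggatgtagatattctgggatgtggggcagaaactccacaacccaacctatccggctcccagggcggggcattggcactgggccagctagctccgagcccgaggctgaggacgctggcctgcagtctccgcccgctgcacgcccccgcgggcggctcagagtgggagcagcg
Il1rap: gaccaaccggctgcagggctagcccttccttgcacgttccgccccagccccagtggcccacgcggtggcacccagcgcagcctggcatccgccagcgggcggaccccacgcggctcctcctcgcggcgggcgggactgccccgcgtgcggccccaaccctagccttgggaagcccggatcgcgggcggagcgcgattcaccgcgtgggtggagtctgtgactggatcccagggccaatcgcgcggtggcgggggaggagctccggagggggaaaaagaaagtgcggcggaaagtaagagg

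The genes of interleukin-1 itself and of its antagonist were under background on both arrays. Il1a, the alarmin form of interleukin-1 that cells release on damage, read 4.49 on the stimulated and 4.35 on the non-stimulated array. Il1rn, the antagonist that occupies the receptor without signalling, read 4.66 on the stimulated and 4.38 on the non-stimulated array. Il1b, the secreted form, was also under background, at 4.15 and 4.52 on the stimulated and the non-stimulated array. No difference can be read for any of the 3 at these levels. The windows of Il1a (chr2:129309923-129310222, - strand) and Il1rn (chr2:24336610-24336909, + strand) each held 1 TGANTCA match, and none of the windows of these 2 genes held a kappaB match.

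Of the other interleukin-1 family ligands, few were measurable. Of 10 ligands and binding proteins with a value, 3 were above background, and all 3 read lower with homogenate. Their median was -0.25. Il18 read 5.57 and 6.05 on the stimulated and the non-stimulated array, a difference of -0.48 with the stimulated value at the background level. Il33, an alarmin of stromal nuclei, read 6.99 and 7.24, and Il18bp, which binds and blocks interleukin-18, read 6.33 and 6.38. With no background filter the median of the 10 was 0.01, so the direction of this list depends on the filter.

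Of the rest of the interleukin-1 receptor family, 1 gene was measured on both arrays and read higher. Of 9 family genes with a value, 4 were above background, 3 of them on both arrays, and the median difference of the 4 was 0.50. It was 0.42 with values under background raised to that level and 0.21 over all 9 genes with no filter. Besides Il1r1 and Il1rap the 4 were Il1rl2, the ligand-binding chain of the interleukin-36 receptor, which also pairs with Il1rap, and Il18rap, the accessory chain for interleukin-18. Il1rl2 read 8.35 on the stimulated and 7.94 on the non-stimulated array, 1.33-fold higher. Il18rap passed background on the stimulated array alone, at 5.79 against 5.22, which leaves a bound of at least 1.16-fold higher. A gene that passes through the stimulated array alone had to read higher there. The decoy receptor Il1r2, which binds interleukin-1 without signalling, was under background at 5.12 and 5.00 on the stimulated and the non-stimulated array. Il1rl1, the interleukin-33 receptor, is not analysed here.

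Tlr2, Tlr3 and Tlr4 were above background on both arrays, and each read slightly higher with homogenate. Tlr2 read 6.90 on the stimulated and 6.75 on the non-stimulated array, a difference of 0.14. Tlr3 read 8.99 on the stimulated and 8.78 on the non-stimulated array, a difference of 0.21. Tlr4 read 8.15 on the stimulated and 8.04 on the non-stimulated array, a difference of 0.11. Each of these differences lay inside the central 95% of the genes of like level, which ran from -0.39 to 0.36 for Tlr2, from -0.25 to 0.29 for Tlr3 and from -0.29 to 0.32 for Tlr4. They ranked 2344, 1289 and 3199 from the top.

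The promoter windows of Tlr2 and Tlr3 are shown because, with Il1r1, they were the 3 of the 8 genes searched with a kappaB match. By window this is 3 of 12, beside 8.46% of all 32851 windows. The share by gene was not computed over all genes. In the Tlr2 window on the - strand at chr3:83841559-83841858, matches begin at -173, -172 and -8, and the first 2 overlap. In the Tlr3 window on the - strand at chr8:45410331-45410630 the match GGGAGTTTCC begins at -211. Irak3 and Il1rap had no kappaB match in their windows. Whether a match goes with the size of a difference was not tested.
Tlr2: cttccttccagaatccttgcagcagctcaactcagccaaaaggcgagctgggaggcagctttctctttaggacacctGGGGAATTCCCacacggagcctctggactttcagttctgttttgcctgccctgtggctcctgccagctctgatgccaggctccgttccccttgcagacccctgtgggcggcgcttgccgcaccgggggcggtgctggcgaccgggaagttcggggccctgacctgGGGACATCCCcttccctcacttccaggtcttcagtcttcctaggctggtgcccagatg
Tlr3: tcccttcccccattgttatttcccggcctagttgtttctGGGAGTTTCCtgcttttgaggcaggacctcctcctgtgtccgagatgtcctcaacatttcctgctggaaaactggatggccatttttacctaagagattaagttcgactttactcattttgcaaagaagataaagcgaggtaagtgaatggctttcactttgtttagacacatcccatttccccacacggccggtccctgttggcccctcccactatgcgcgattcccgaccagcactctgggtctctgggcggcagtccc

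**Figure D2:**
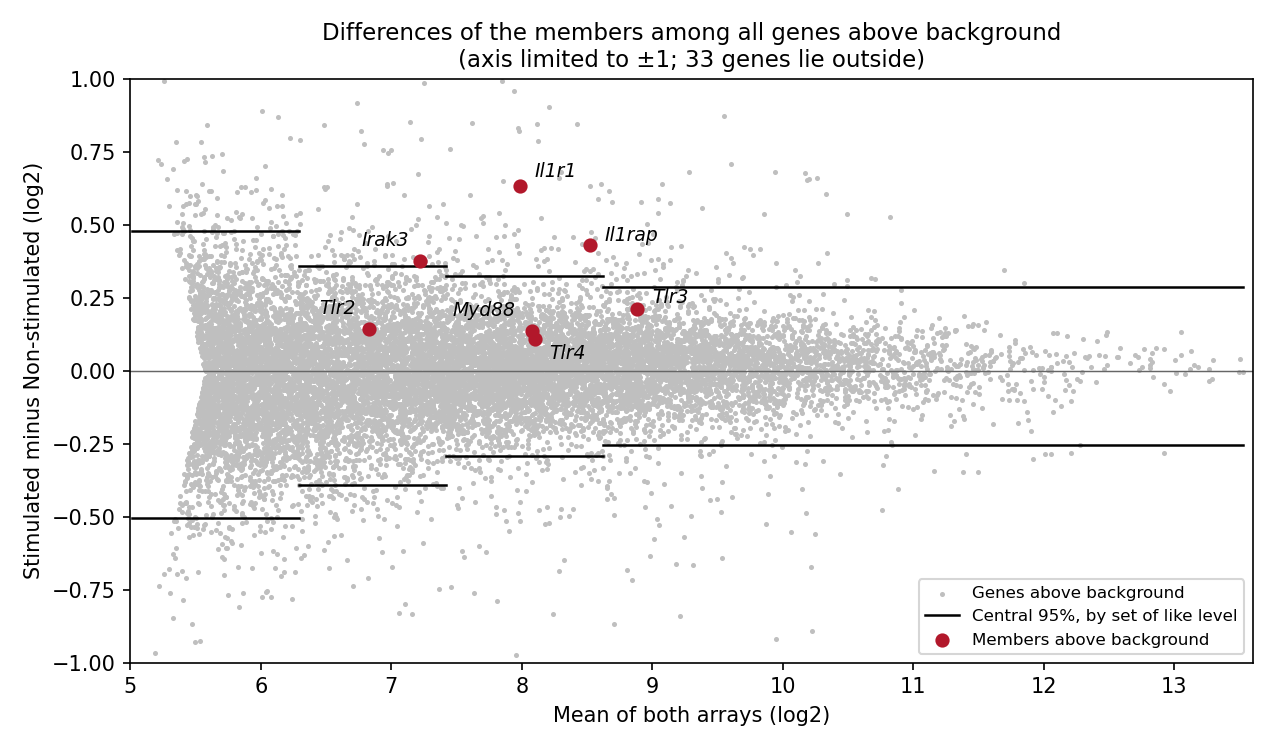
Difference between the arrays (stimulated minus non-stimulated, log2, vertical axis) against the mean of both arrays (log2, horizontal axis) for the 14068 genes above background, with the 7 genes of interest in red and black lines at the central 95% of each of 4 equal sets of genes by mean. Il1r1 (0.63), Il1rap (0.43) and Irak3 (0.38) lie above the upper line of their set, and Tlr2, Tlr3, Tlr4 and Myd88 lie inside; 33 genes fall outside the vertical axis.

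Of the other Toll-like receptors, Cd180 included, 4 were above background, 1 of them higher and 3 lower, none by 0.25. Tlr5, the flagellin receptor, read 6.55 on the stimulated and 6.38 on the non-stimulated array. Tlr6, a partner of TLR2, read 6.00 on the stimulated and 6.15 on the non-stimulated array, and Tlr1, the other partner, was under background at 5.55 and 5.51. Tlr12 (5.56 and 5.78) and Tlr9 (5.39 and 5.59) passed background on the non-stimulated array alone, so they had to read lower with homogenate. This leaves bounds of at least 1.16-fold lower for Tlr12 and 1.01-fold lower for Tlr9.

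The lipopolysaccharide receptor is a complex, and its parts differed in whether they were measurable. Ly96, which encodes MD-2, the protein that holds lipopolysaccharide on TLR4, read 10.23 on the stimulated and 10.08 on the non-stimulated array. Cd14, which hands lipopolysaccharide to that complex, read 5.44 on the stimulated and 5.32 on the non-stimulated array, just under background on both. Lbp, which carries lipopolysaccharide to CD14, read 5.76 with homogenate and 5.36 without it, where it was under background, a bound of at least 1.14-fold higher. Of the 8 co-receptors and chaperones 5 were above background, with a median of 0.03. Unc93b1, which escorts nucleic acid-sensing receptors to endosomes, differed by 0.03, and Cnpy3, a folding factor for Toll-like receptors, by -0.12.

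Cd14, Tlr2, Il1a and Il1rn are also used by macrophages, so markers of leukocytes are given beside them. Of 15 macrophage and dendritic cell markers 6 were above background. They were led by Mertk (7.02 and 6.98 on the stimulated and the non-stimulated array) and Cx3cr1 (6.81 and 6.57). The others were Cd68 (6.52 and 6.31), Fcgr1 (5.81 and 5.75), C1qa (5.81 and 5.97) and Lyz2. Of the 6, 5 read higher on the stimulated array and 1 lower, and their median was 0.14. Lyz2, one of the 5, passed background on the stimulated array alone, at 5.66 against 5.15. It therefore had to read higher there, and it raises both the count and the median. The others differed by 0.23 (Cx3cr1), 0.21 (Cd68), 0.06 (Fcgr1), 0.04 (Mertk) and -0.15 (C1qa). The marker values summed on the linear scale came to 796 on the stimulated and 753 on the non-stimulated array over all 15. Adgre1, Csf1r (5.43 and 5.36) and Itgam (5.22 and 5.36), of the same macrophage list, were under background on both arrays. So was the pan-leukocyte gene Ptprc (3.95 and 4.16). These genes were picked for naming after their values were seen. Of 12 pan-leukocyte markers 5 were above background, led by Cd53 (9.56 and 9.73 on the stimulated and the non-stimulated array) and Cd37 (6.10 and 6.21), and 1 of the 5 was higher and 4 were lower. Above background were also 2 of 9 eosinophil, 2 of 10 neutrophil, 4 of 10 endothelial and 5 of 12 epithelial markers. The part of such cells in the values of Tlr2 was not tested, and in pooled RNA fewer cells of a type and less RNA per cell cannot be told apart.

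Downstream of the receptors, the inhibitory kinase homologue differed more than the adaptor. Irak3, known as IRAK-M, restrains signalling from interleukin-1 and Toll-like receptors, and it read 7.41 on the stimulated and 7.03 on the non-stimulated array. This is a difference of 0.38, or 1.30-fold higher, ranked 358 from the top and just above the central 95% of genes of like level (-0.39 to 0.36). Myd88, the shared adaptor, read 8.15 on the stimulated and 8.01 on the non-stimulated array, a difference of 0.14 inside the range of its set (-0.29 to 0.32) and ranked 2500. The Myd88 window (chr9:119339969-119340268, - strand) held 1 TTCNNNGAA match and no kappaB match, and the 2 Irak3 windows held none of the 3.

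The kinases that carry the signal forward differed little. Of 15 genes of the IRAK, TRAF6 and TAK1 steps with a value, all were above background, 13 were higher and 2 lower, none by 1.5-fold. Their median was 0.05. Irak1 read 8.25 on the stimulated and 8.18 on the non-stimulated array, and Irak2 read 7.25 and 7.18, differences of 0.07 and 0.06 beside 0.38 for Irak3. Irak4 is not analysed here. Apart from Irak3, the gene furthest from 0 was Ikbkg, which encodes the regulatory subunit of the IkB kinase, at 0.26. Peli2, a ubiquitin ligase that acts on IRAK proteins, followed at 0.20, and its relative Peli3 differed by -0.16.

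The TIR adaptors other than Myd88 went both ways. Ticam1, which encodes TRIF and serves TLR3 and TLR4, read 6.33 on the stimulated and 6.60 on the non-stimulated array, a difference of -0.27. Sarm1, a TIR protein with an enzymatic activity on NAD, read 6.12 and 5.78, a difference of 0.34. Ticam2, which links TRIF to TLR4, differed by 0.16 and Tirap, which bridges MyD88 to TLR2 and TLR4, by -0.07. In the TRIF and interferon branch as a whole, 11 of 13 genes above background were higher and 2 lower, and the median was 0.08. The 2 lower were Ticam1 and Isg15, an interferon-induced gene that differed by -0.25. Cxcl10, an interferon-induced chemokine and 1 of the 11, passed background on the stimulated array alone. It therefore had to read higher there, and the bound is at least 1.49-fold. Ifit1, an interferon-induced antiviral gene, differed by 0.51, and Ikbke, a kinase upstream of interferon regulatory factors, by 0.39.

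Genes that restrain these receptors were mixed, with the larger differences upwards. Of 17 with a value 13 were above background, 8 higher and 5 lower, with a median of 0.12. Nfkbia, the inhibitor that holds NF-kB in the cytoplasm and is itself an NF-kB target, read 8.54 on the stimulated and 7.70 on the non-stimulated array, 1.80-fold higher. Zc3h12a, an RNase that degrades cytokine messages, read 7.80 and 7.30 on the stimulated and the non-stimulated array. Irak3 came next in size, Usp18, which also damps interferon signalling, differed by 0.31, and Dusp1, a phosphatase of MAP kinases, differed by -0.29.

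NF-kB target genes, which these receptors and other pathways can switch on, held the larger differences. Of 22 above background in a list of targets that stromal cells use, 20 read higher, 1 lower and 1 equal on the stimulated array. At least 1.5-fold higher were 13, and 9 measured at least 2-fold higher. Of these, Steap4 and Lcn2 were below background on the non-stimulated array, so that they are higher by at least 6.78-fold for Steap4 and at least 1.87-fold for Lcn2. The median was 0.76, against 0.21 for the 7 sensing genes. Saa3 (10.50 and 5.93 on the stimulated and the non-stimulated array), Cxcl5 (10.19 and 6.31) and Cxcl1 (8.66 and 5.78) led the targets above background on both arrays. Il6, a cytokine that fibroblasts release in answer to interleukin-1, read 8.42 and 7.46. Over the 126 pathway genes other than the 10, 96 were above background, 72 higher, 23 lower and 1 equal, and 15 measured at least 1.5-fold higher (Cxcl10 among them, with the bound given above) and none as much lower, with a median of 0.07. These lists share some genes and were drawn up with earlier results of these arrays known, so their direction is not independent evidence.

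**Figure D3:**
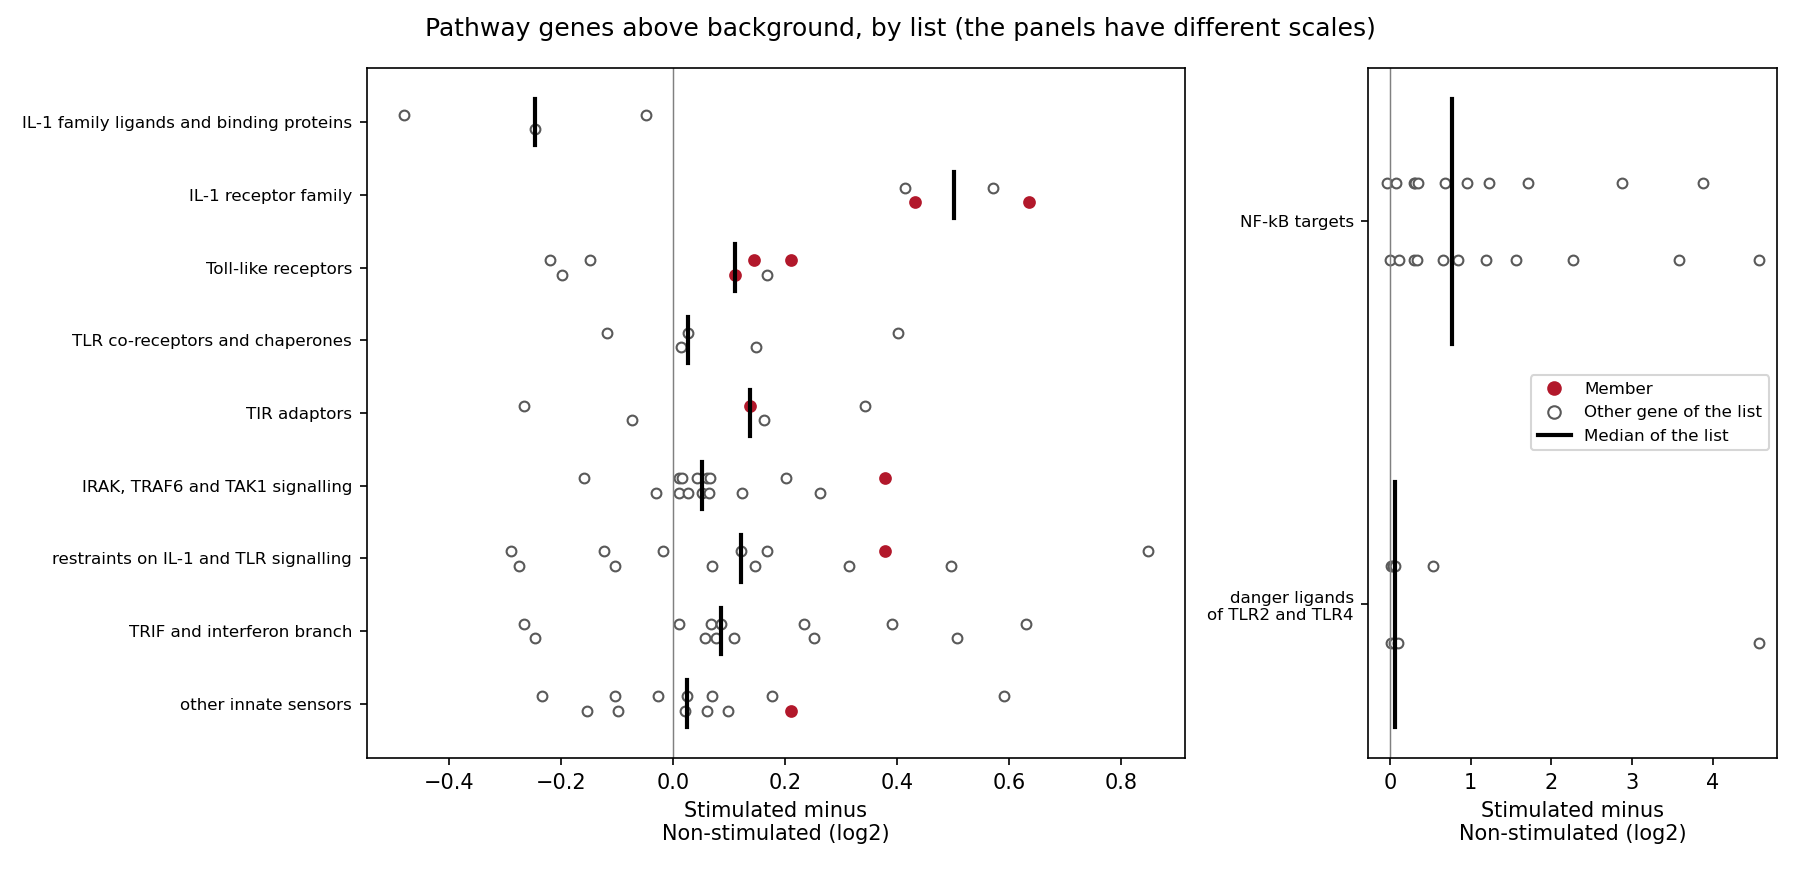
Difference between the arrays (stimulated minus non-stimulated, log2, horizontal axis) for each gene above background in 11 pathway lists, with the 10 genes of interest filled where measured, other genes open and a bar at each list's median; the right panel has a wider scale. Il1rl2, Il1rap and Il1r1 lie between 0.41 and 0.63, Il18rap is drawn at 0.57 although it is under background without homogenate, the Toll-like receptors lie on both sides of 0, and the NF-kB targets reach 4.57.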

How the data were processed

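RNA of mouse intestinal myofibroblasts was measured on 2 GeneChip Mouse Gene 2.0 ST arrays, 1 per condition. The deposited log2 values were made by the authors with Affymetrix Expression Console and RMA, per the submitters' processing notes. Version numbers and the genome build were not given in the sources used here. The sorted values of the arrays differed by at most 0.0757, as after quantile normalization, so each difference is relative to all probesets. Precision is limited by having 1 array per condition.

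The platform annotation gave a single gene for 23521 of 41345 probesets, which were used, several genes for 1814 and no gene for 16010. Symbols came from RefSeq for 23328 of them. The probeset with the highest mean stood for a gene. A gene under background on 1 array has a fold given as a bound against that level. The members and gene lists were chosen with earlier results of these data known. Genes named were the 10 members, their complex partners, up to 4 further genes per pathway list by size and those past 1.5-fold. The highest 2 markers of a cell type were also named, of which the fibroblast, macrophage, pan-leukocyte and eosinophil ones are printed. Epx, S100a8, S100a9, Prg2, Adgre1, Csf1r, Itgam, Lyz2, Cd68, Fcgr1, C1qa, Ptprc and Isg15 were named after their values were seen.

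The counting code was run on simulated data whose noise was set well below the spread of the real differences. That run checks the code and says nothing about the error of these arrays. Alternatives were other background filters, values raised to background, the mean of probesets, centring on the median or a lowess trend, and other thresholds. Python 3.11.15, pandas 2.3.3 and statsmodels 0.14.6 were used.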

Additional observations from a re-analysis of the deposited data

How the results depend on the processing

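With 1 array per condition, no setting gives a test, and values were called moved past 0.1 on the log2 scale or past 1.5 times for a count. The 7 sensing genes above background read higher under each of the 7 alternatives, and the median of 0.21 stayed within that tolerance. Most of this was fixed in advance. The background settings cannot change the difference of these genes, which passed on both arrays. The mean of probesets can move Il1rap alone, so for the other genes only the centrings could alter a difference. Il1rap is the exception in size, at 0.04 with the mean of its probesets in place of 0.43, since the other two were under background. The count of 1 gene at 1.5-fold was 0 at 2-fold and 3 at 0.25 on the log2 scale, and the 15 other pathway genes at 1.5-fold were 9 at 2-fold. The median of the interleukin-1 ligand list was 0.0062 in place of -0.25 with no background filter, a setting that adds 7 genes under background. Without that filter the interleukin-1 receptor family median was 0.21. With the background at the 99th percentile the TIR adaptor median was 0.03 and that of the NF-kB targets 0.90. The median of the NF-kB targets was 0.67 with no filter, and also 0.67 when genes had to pass background on both arrays. Of 157 values recomputed, 149 stayed within tolerance, among them many that the setting could not change. Il1a, Il1rn and Cd14 cannot be compared at this signal. No paired analysis was possible because each condition is 1 array of pooled cultures.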

Other observations

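Sensors outside the Toll-like and interleukin-1 families were near 0 as a list. Of 12 above background, 7 read higher and 5 lower with homogenate. Their median was 0.02. Casp4, the cytosolic sensor of lipopolysaccharide (mouse caspase-11), stood furthest out, at 9.34 on the stimulated and 8.75 on the non-stimulated array, 1.51-fold higher. Casp1, which activates interleukin-1 beta in inflammasomes, read 6.09 and 5.91, and Ager, a receptor for damage products, read 5.85 and 6.08.

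Genes whose products have been described as danger ligands of TLR2 or TLR4 were above background for 8 of 13, and all 8 read higher with homogenate, most by little. Their median was 0.06. Saa3, an acute-phase protein, differed by 4.57, and Vcan, the matrix proteoglycan versican, read 10.13 on the stimulated and 9.59 on the non-stimulated array. Dcn (decorin) differed by 0.10 and Hspd1 (a mitochondrial chaperone) by 0.06. S100a8 and S100a9, the calprotectin subunits of neutrophils, were under background on both arrays.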
